A study of Mus musculus with 4 samples.

Results

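Glucose metabolism was examined through 36 mouse genes that encode glucose transporters, glycolytic enzymes and their regulators, lactate exporters, pyruvate dehydrogenase with its kinases, and pentose phosphate enzymes. They were listed by name, and every probe set (a group of short probes for 1 transcript) whose annotation names a listed gene was taken, without the array control probe sets. This gave 72 of 45037 probe sets for 33 of the 36 genes, 68 of them with 1 gene symbol and 4 shared with other symbols. Gpi1, Eno1 and G6pdx matched no probe set and were not analysed here. Gapdh had shared and control probe sets only, which left 32 genes with a probe set of their own among 18193 such genes.

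The study's question was how marrow cells become macrophages in culture during space flight. Marrow of 21 adult C57BL/6 mice, over 8 weeks old, was pooled, freed of red cells and cultured with 1.5 µg/ml macrophage colony-stimulating factor (M-CSF) in closed glass barrels at 37 °C. The space flight group travelled on a shuttle and was lysed on culture day 15, flight day 14, after fresh medium with M-CSF on culture day 6. The ground control group shared mice, medium and temperature profile and stayed on the ground. Each of the 4 arrays, 2 per group, held RNA of a separate pool of 2 barrels. These were the best 2 of 4 pools in each group by RNA quality, and all had an RNA integrity number of 3, which is degraded RNA. For each array 50 ng of RNA was primed and amplified in 2 rounds. All cultures came from 1 marrow pool, so p-values cover the spread between cultures and arrays and not between mice. A closed barrel with 1 medium addition is a batch culture, and the labels give no glucose, lactate or oxygen reading.

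Intensities are given on the log2 scale after quantile normalization. A difference is the space flight mean less the ground control mean, with its standard error (SE) from limma over 2 arrays per group. Of the 18193 genes, 11141 had a mean of at least 6.40, the median of all probe sets, and are called measured; all 32 genes were among them. The cultures carried macrophage markers, 11 of 12 of them measured, with Lyz2 between 15.24 and 15.32 on all arrays and Csf1r and Cd68 at 14.73 or above. None of the 11 passed limma's test. At an unadjusted p under 0.05, 5 were lower and 0 higher in space flight, against 7.32% and 6.88% of measured genes. Csf1r stood at −0.37 ± 0.11 (SE) and Cd68 at −0.43 ± 0.13. The differences of 5 of the 11 were above 0, and their median was −0.061, which was that of Lyz2. The median of all measured genes differed by 0.015 between the groups. Replicates of space flight were less alike than those of ground control: over the 32 genes their difference had an SD of 0.62 and 0.36, and over all measured genes 0.70 and 0.47. The small number of arrays limits the precision, and the smallest two-sided p that an exact permutation test of 2 against 2 arrays allows is 0.333.

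Cells take up glucose through facilitative transporters of the Slc2a family, trap it with hexokinase, commit it to glycolysis at phosphofructokinase, and turn it into pyruvate with a gain of ATP. Pyruvate either enters mitochondria through pyruvate dehydrogenase, which the Pdk kinases switch off, or is reduced to lactate and exported by Slc16a carriers. The pentose phosphate pathway branches off after hexokinase and supplies NADPH and ribose. Macrophages and neutrophils both depend heavily on glycolysis, and hypoxia and inflammatory signals are known to raise many of these genes through the transcription factor Hif1a.

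The genes did not shift together. None of the 32 passed limma's test (adjusted p under 0.05), at which 5 of 11141 measured genes (0.0449%) were higher and 2 (0.018%) lower in space flight. At an unadjusted p under 0.05 there was 1 higher gene, the transporter Slc2a3, and 1 lower gene, the aldolase Aldoc, where 6.88% of measured genes were higher and 7.32% lower. Both space flight arrays lay above both ground control arrays for 9 of the 32 genes and below them for 10, against 23% and 22.5% of measured genes. The median difference of the 32 genes was −0.045, and 15 of 32 were above 0, against 51.2% of measured genes. Leaving out 1 array leaves a group with a single array, whose spread is then taken from the other group. In such fits 5 genes passed without space flight replicate 1 (Slc2a3, Slc16a3, Pfkfb3, Pdk3 and Tpi1), 2 without space flight replicate 2 (Slc2a3 and Slc16a1), 1 without ground control replicate 2 (Slc2a3) and 0 without ground control replicate 1, where 3 had an unadjusted p under 0.05. Of all measured genes 1080, 741, 41 and 7 passed in the same fits.

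**Figure D1:**
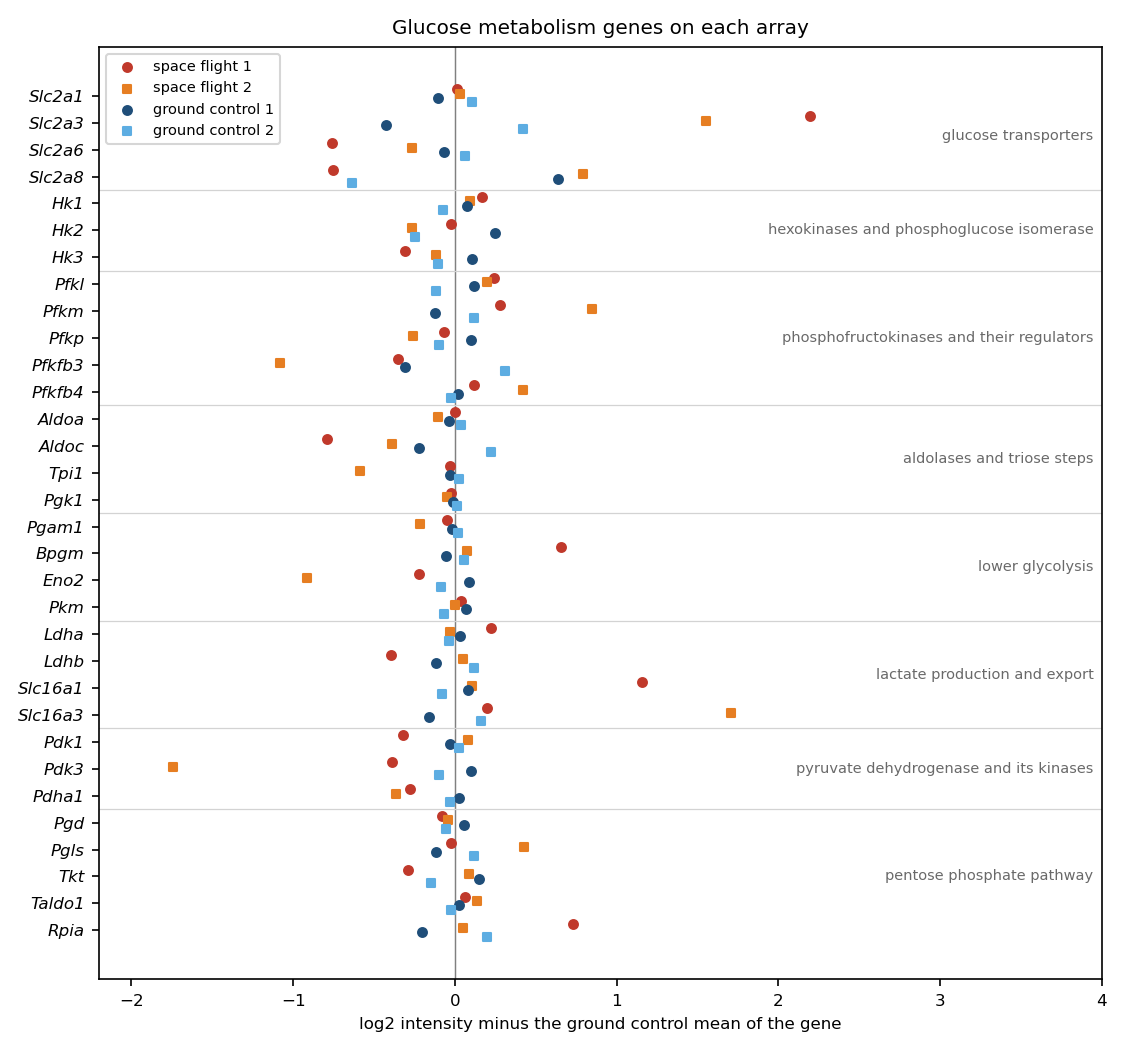
Each of the 32 measured genes on each array, as log2 intensity minus the gene's ground control mean, grouped by step of the pathway; circles are replicate 1 and squares replicate 2. Slc2a3 has both space flight arrays well to the right of both ground control arrays, while Slc16a3, Slc16a1 and Pdk3 have 1 space flight array far out and the other near the ground control values.

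The largest difference was in glucose uptake. Slc2a3 encodes GLUT3, a high-affinity glucose transporter known from neurons and white blood cells. Its brightest probe set read 11.27 and 10.62 on space flight arrays 1 and 2, and 8.65 and 9.50 on ground control arrays 1 and 2. Both space flight values were more than 1 log2 unit above the higher ground control value. The difference was 1.87 ± 0.36 (SE), a 3.66-fold ratio, with a 95% interval from 1.07 to 2.67 (limma adjusted p = 0.0910), and by p it ranked 42 of 11141. A second measured probe set read 9.89 and 9.83 in space flight against 7.92 and 8.46, a difference of 1.67 ± 0.34 (SE). Both are of the maker's classes that can bind other transcripts. The other 2 probe sets of Slc2a3 were too dim to be measured and gave −0.21 and 0.13, and the mean of all 4 gave 0.86. The adjusted p was 0.00480, 0.000222 and 0.0144 without space flight replicates 1 and 2 and ground control replicate 2, but 0.319 without ground control replicate 1, at a difference of 1.45. With the replicate number as a block the limma adjusted p was 0.00185, but same-numbered arrays share only a number. In that fit 1916 measured genes had an unadjusted p under 0.05, against 1582 without the block.

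Neutrophil markers also lay higher on the space flight arrays. All but 1 of the 11 measured of 12 neutrophil markers had both space flight arrays above both ground control arrays, and Mmp8 had both below. Over all measured genes 23% lay above and 22.5% below in this way. Of the 11 markers 2 passed limma's test, both higher, against 5 of 11141 measured genes (0.0449%) higher. At an unadjusted p under 0.05, 10 were higher and 1 lower, against 6.88% and 7.32%. The 11 markers summed to 79785 and 145096 in deposited intensity on space flight arrays 1 and 2. In ground control the sums were 46345 and 51345. No marker was at 0 on any array. The macrophage marker sum was 104367 and 144563 against 118251 and 128454, also highest on space flight array 2. On the normalized scale 6 of the 11 macrophage genes lay below in the same way and 2 above. The brightest neutrophil markers, S100a8, S100a9 and Mmp8, differed by 0.79, 1.36 and −0.64. As a deposited intensity Slc2a3 read 2482 on space flight array 1 and 1488 on array 2, against 398 and 694 in ground control. Summed erythroid markers, 8 of 12 measured, were 12877 and 17261 in space flight against 7502 and 9236. Of their 8 differences, which ran from −0.42 to 2.17, 5 were above 0, against 51.2% of measured genes. The brightest of the 8 markers, Tfrc, Slc4a1 and Alas2, differed by −0.14, 2.17 and 1.23. The part of any of these cell types in the Slc2a3 result was not tested. In RNA of whole cultures, fewer cells of a type and less RNA per cell cannot be told apart.

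The other transporters did not share this difference. Slc2a1 encodes GLUT1, the main basal glucose transporter of most cells. It read 14.49 and 14.51 in space flight and 14.37 and 14.58 in ground control. The groups overlapped, with a difference of 0.021 ± 0.14 (SE) and a 95% interval from −0.28 to 0.32. Its 2 other probe sets gave 0.025 and −0.32. Slc2a6, a transporter of lysosomal membranes in macrophages, read 8.30 and 8.79 against 8.99 and 9.12. Both space flight values were below both ground control values, by −0.51 ± 0.33 (SE; adjusted p = 0.522). Slc2a8, an intracellular transporter, could not be resolved, with 6.40 and 7.95 against 7.80 and 6.52. Its interval ran from −1.35 to 1.39.

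**Figure D2:**
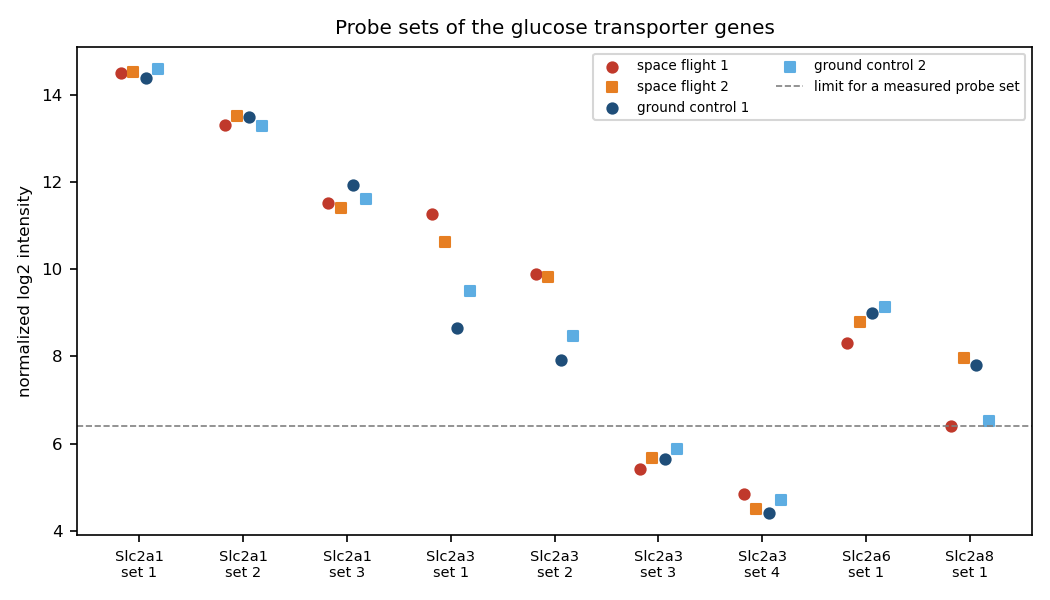
Normalized log2 intensity of every probe set of the glucose transporter genes on the 4 arrays, ordered by brightness within a gene; the dashed line is the limit of 6.40 for a measured probe set. The 2 brighter probe sets of Slc2a3 separate the groups, and its 2 dim ones and the Slc2a1 probe sets do not show that gap.

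Hexokinases start glycolysis by phosphorylating glucose. Hk1, the broadly expressed form, read 12.14 and 12.07 in space flight and 12.05 and 11.90 in ground control, a difference of 0.13 ± 0.21 (SE). A second, dimmer Hk1 probe set differed more, with 8.35 and 7.04 against 5.22 and 6.44, or 1.87 ± 0.65 (SE; adjusted p = 0.297 over all measured probe sets). Both ground control arrays gave it a lower reading than either space flight array, and ground control array 1 was below the limit of 6.40. Hk2, the form induced by hypoxia and growth signals, read 13.67 and 13.42 against 13.93 and 13.44. Its groups overlapped, and its interval ran from −0.58 to 0.29. Hk3, the form typical of myeloid cells, read 13.23 and 13.42 against 13.64 and 13.43. Its difference of −0.21 ± 0.17 (SE) did not pass (adjusted p = 0.616), and its second probe set gave −0.096.

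Phosphofructokinase commits sugar to glycolysis, and Pfkfb enzymes make or remove its activator fructose 2,6-bisphosphate. The enzyme's own genes had differences of 0.22 ± 0.16 (SE) for the liver form Pfkl, 0.56 ± 0.34 for the muscle form Pfkm and −0.16 ± 0.17 for the platelet form Pfkp. Pfkm read 8.73 and 9.30 in space flight against 8.33 and 8.58, so its groups did not overlap. A dimmer probe set of Pfkp gave −0.97 ± 0.39 (SE). Pfkfb3, whose product mainly makes the activator, read 10.61 and 9.89 in space flight and 10.66 and 11.28 in ground control. Space flight array 1 was close under ground control array 1, and space flight array 2 was well below both. The difference was −0.72 ± 0.33 (SE; adjusted p = 0.363); leaving out space flight replicate 2 gave −0.35, and leaving out replicate 1 gave −1.08 (adjusted p = 0.0256). Its other probe set gave −0.77 ± 0.75. Pfkfb4, the related hypoxia-induced enzyme, read 9.70 and 10.00 against 9.60 and 9.56, with a difference of 0.27 ± 0.29 (SE).

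In the middle of glycolysis, aldolase splits the sugar and the triose enzymes carry the products on to ATP formation. Aldoc, the aldolase form best known from brain, read 11.36 and 11.76 in space flight against 11.93 and 12.38 in ground control. Both space flight values were below both ground control values, by −0.59 ± 0.25 (SE; unadjusted p = 0.0400, adjusted p = 0.323), a 1.51-fold ratio. Its second probe set gave −0.35 with overlapping groups. Aldoa, the main form, read 15.39 and 15.28 against 15.35 and 15.42, a difference of −0.052 ± 0.11 (SE). Its 4 other probe sets ran from −0.045 to 0.49, the last on the dimmest. Tpi1, triose phosphate isomerase, read 15.06 and 14.50 against 15.06 and 15.12. Its difference of −0.31 ± 0.17 (SE; adjusted p = 0.442) came from space flight array 2. It was −0.030 without that array and −0.59 without space flight replicate 1 (adjusted p = 0.0143), and the 2 other probe sets of Tpi1 gave −0.44 and −0.24. Pgk1, phosphoglycerate kinase, had −0.039 ± 0.11 (SE), with 15.31 and 15.29 against 15.33 and 15.35.

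Gapdh, which oxidises the triose, was read by 3 probe sets that also name pseudogenes, so no value is given as that of the gene. The brightest of them read 15.10 and 15.11 in space flight and 15.14 and 15.11 in ground control, a difference of −0.021 ± 0.12 (SE). The 2 others gave 0.053 and 0.17. The Gapdh control probe sets measure how far labelled RNA reaches from the 3' end. As deposited intensities, the 3' set read 33578 and 54735 in space flight against 34495 and 36957, and the 5' set read 8211 and 3591 against 8351 and 11107. The ratio of 3' to 5' was 4.09 and 15.2 against 4.13 and 3.33, so space flight array 2 stood apart. For Actb the ratios were 3.08 and 4.91 against 2.30 and 2.84. The readings of Tpi1, Pfkfb3, Pdk3 and Slc16a3 that lay farthest from ground control were on that array. Those of Slc2a3, Slc16a1, Aldoc and Slc2a6 were on space flight array 1. Of the 32 genes, 11 lay above and 15 below both ground control values on space flight array 1. On space flight array 2 these counts were 12 and 13. The part of RNA quality in any of these readings was not tested.

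In lower glycolysis Pgam1, phosphoglycerate mutase, had a difference of −0.13 ± 0.13 (SE) and Pkm, pyruvate kinase, 0.019 ± 0.12. Pkm read 14.81 and 14.78 in space flight against 14.84 and 14.71, and its interval ran from −0.25 to 0.29. Eno2, the enolase of neurons, read 8.92 and 8.23 against 9.23 and 9.06. Its difference of −0.57 ± 0.35 (SE; adjusted p = 0.495) was −0.22 without space flight replicate 2 and −0.92 without replicate 1. Bpgm makes the 2,3-bisphosphoglycerate that tunes haemoglobin in red cells, and it read 9.23 and 8.66 against 8.53 and 8.63. Its difference of 0.37 ± 0.34 (SE) came mainly from space flight array 1, and it was 0.077 without that array. Its 2 dimmer probe sets gave −0.065 and 0.10. The erythroid marker sum named above was higher in space flight too, and its part in the Bpgm value was not tested.

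Lactate is formed by Ldha, whose product favours the step from pyruvate to lactate, and leaves through the carriers Slc16a3 (MCT4, the main exporter of glycolytic cells) and Slc16a1 (MCT1). Ldha read 15.35 and 15.09 in space flight and 15.16 and 15.09 in ground control, a difference of 0.096 ± 0.12 (SE) with overlapping groups. Ldhb, the form that favours pyruvate, differed by −0.17 ± 0.29. The carriers lay higher in space flight, each on a different array. Slc16a3 read 9.81 and 11.32 against 9.45 and 9.77. It was highest on space flight array 2, and array 1 was barely above the ground control range. The difference was 0.96 ± 0.43 (SE; adjusted p = 0.355), but 0.20 without space flight replicate 2 and 1.71 without replicate 1 (adjusted p = 0.000706). Slc16a1 read 9.64 and 8.59 against 8.57 and 8.40, so here array 1 was the high one. Its difference of 0.63 ± 0.39 (SE; adjusted p = 0.498) was 0.11 without space flight replicate 1 and 1.16 without replicate 2 (adjusted p = 0.0365). Bsg, the chaperone that brings both carriers to the cell surface, read 12.68 and 11.64 against 11.40 and 11.65, again with array 1 high.

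At the entry to mitochondria all 3 genes had negative differences and none passed, where 51.2% of measured genes were above 0. Pdk3, a kinase that inactivates pyruvate dehydrogenase, read 7.68 and 6.33 in space flight and 8.17 and 7.97 in ground control. Both space flight values were lower, array 2 by far the most, and that reading was below the limit of 6.40. The difference was −1.07 ± 0.50 (SE; adjusted p = 0.364), −0.39 without space flight replicate 2, and −1.75 without replicate 1 (adjusted p = 0.0111). Pdk1, the kinase induced by hypoxia, read 12.33 and 12.74 against 12.63 and 12.68, a difference of −0.12 ± 0.21 (SE). Its 3 other probe sets gave −0.37, −0.15 and −0.38. Pdha1, the catalytic subunit of the dehydrogenase, differed by −0.32 ± 0.25 (SE) with both space flight values lower, while a dimmer probe set gave 0.55 ± 0.35 with both higher.

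Promoter windows are shown for Slc16a3 and Pdk3, which had the largest positive and negative differences after Slc2a3, and for Ldha, which lay near 0. The Slc2a3 window was not in the table used. They are RefSeq sequences of assembly GRCm38.p6, from 250 bases before to 50 after the annotated start, on the gene's strand. Capitals mark ACGTG on either strand, the core of the element bound by Hif1a.
Slc16a3, chr11:120948817-120949116, plus strand: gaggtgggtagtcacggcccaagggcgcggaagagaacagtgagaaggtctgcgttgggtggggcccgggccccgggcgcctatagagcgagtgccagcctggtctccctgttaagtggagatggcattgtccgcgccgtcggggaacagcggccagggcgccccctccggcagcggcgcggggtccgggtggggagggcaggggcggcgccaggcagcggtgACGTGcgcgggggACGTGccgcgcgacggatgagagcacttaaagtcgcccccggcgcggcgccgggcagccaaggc
Pdk3, chrX:93832101-93832400, minus strand: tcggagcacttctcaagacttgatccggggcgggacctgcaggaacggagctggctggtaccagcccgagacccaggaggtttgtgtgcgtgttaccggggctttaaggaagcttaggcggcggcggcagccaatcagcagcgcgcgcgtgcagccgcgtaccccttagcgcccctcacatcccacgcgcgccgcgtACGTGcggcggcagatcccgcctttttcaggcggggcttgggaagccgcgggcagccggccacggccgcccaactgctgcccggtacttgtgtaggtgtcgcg
Ldha, chr7:46845554-46845853, plus strand: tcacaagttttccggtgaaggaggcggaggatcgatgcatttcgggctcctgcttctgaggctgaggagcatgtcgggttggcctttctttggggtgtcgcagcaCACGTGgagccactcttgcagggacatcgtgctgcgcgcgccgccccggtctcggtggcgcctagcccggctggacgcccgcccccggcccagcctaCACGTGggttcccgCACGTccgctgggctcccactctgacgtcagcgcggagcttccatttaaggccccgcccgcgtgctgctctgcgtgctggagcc

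Slc16a3 held the letters at 2 places, 27 and 14 bases before its start, Pdk3 at 1 place 53 bases before, and Ldha at 3 places 145, 48 and 34 bases before. A second annotated Ldha start, with the window chr7:46846832-46847131, held none. All 3 genes had ACGTG in the windows printed, and no link between the letters and their differences was tested. In the first Ldha window 2 of the 3 places are the palindrome CACGTG, which reads as ACGTG on both strands and is also the core of the motif bound by Myc. Of the 49 windows of the 35 listed genes found, 20 held ACGTG (40.8%), against 19.6% of all 32851 windows of that length. By gene, 17 of the 35 held it in at least 1 window, and no such share was computed over all genes. Windows can overlap, as 2 of Aldoa do around 1 shared site, and the percentages given are of windows. The letters GGGCGG, the GC box, were in 61.2% against 35.7%, CACGTG in 8.16% against 7.15% and TATAAA in 4.08% against 13.6%, each on either strand. A match is a description of the letters and not a measured binding site.

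In the pentose phosphate pathway no gene passed and 4 of 5 had overlapping groups, as did 6072 of 11141 measured genes. Pgd, which forms NADPH, read 15.21 and 15.25 in space flight and 15.35 and 15.24 in ground control, a difference of −0.061 ± 0.11 (SE). Its probe set and 2 of its 3 others are of the class that can bind other transcripts, and the remaining one gave 0.062 ± 0.23. Taldo1, transaldolase, had 0.100 ± 0.11 (SE) with both space flight values above both ground control values, at 15.06 and 15.14 against 15.02 and 14.98. Tkt, transketolase, had −0.100 ± 0.15 and Pgls, the lactonase, 0.20 ± 0.28. Rpia, which forms ribose 5-phosphate, read 10.31 and 9.63 against 9.37 and 9.78. Its difference of 0.39 ± 0.33 (SE) was 0.053 without space flight replicate 1.

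**Figure D3:**
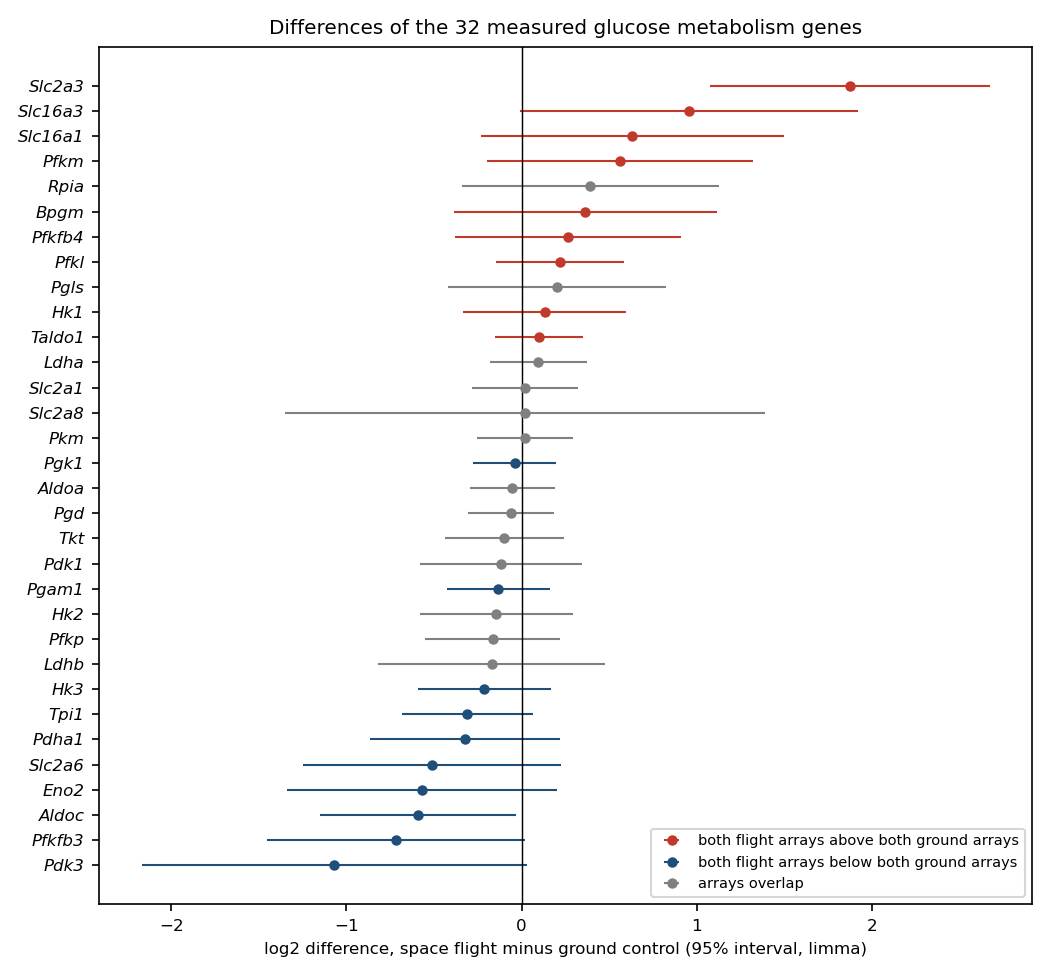
Log2 difference of each of the 32 genes with its 95% interval from limma, coloured by whether the arrays of the groups overlap. The intervals of Slc2a3, from 1.07 to 2.67, and Aldoc, from −1.15 to −0.03, leave out 0, and those of the other 30 genes include it.

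The size of a difference went with how bright the probe set was. Of the 32 genes, 14 (43.8%) were among the brightest 5% of measured genes: Slc2a1, Hk2, Hk3, Pfkl, Pfkp, Aldoa, Tpi1, Pgk1, Pgam1, Pkm, Ldha, Pgd, Tkt and Taldo1. Their median absolute difference was 0.100, against 0.19 for all genes that bright, and the largest was that of Tpi1. The 14 genes in the lower 75% of measured genes by brightness had a median absolute difference of 0.54, against 0.36 for all genes there. Standard errors ran from 0.11 to 0.20 for the bright 14 and from 0.28 to 0.62 for the dim 14. For 20 of the 32 genes (62.5%) the 95% interval excluded a change of 1 log2 unit in either direction. The width of an interval follows its standard error, and this share was not computed over all measured genes. Absolute differences were over 1 for 6.25% of the 32 genes, against 6.75% of measured genes. The brightest probe set reached 16.01 after normalization.

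**Figure D4:**
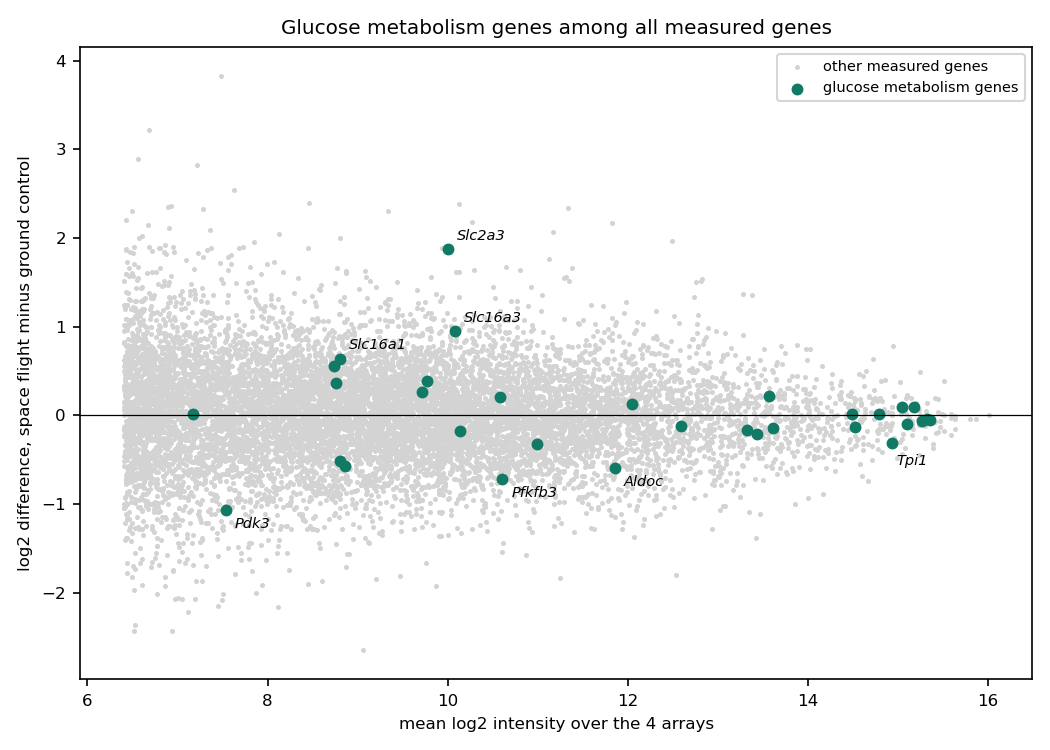
Log2 difference of every measured gene against its mean log2 intensity over the 4 arrays, with the 32 glucose metabolism genes in green. The genes at the bright end lie close to 0, and Slc2a3 lies near the upper edge of genes of its brightness.

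The sign of the small differences among the bright 14 depended on how the arrays were scaled. With quantile normalization 5 of 14 were above 0 and their median was −0.057. With the values as deposited 10 of 14 were above 0 and the median was 0.23, with cyclic loess 9 of 14 and 0.071, and with each array shifted to 1 median 9 of 14 and 0.032. Aldoa, Pgk1, Pgd and Tkt turned from below 0 to above 0 under all 3, and Pgam1 with values as deposited. The median of all measured genes was 0.041, 0.030 and −0.16 under these 3 scalings. On space flight array 2 the 99th percentile of the deposited log2 values was 14.4, against 14.0 to 14.1 on the other arrays. Pgk1 read 57318 there as a deposited intensity, against 35150 on space flight array 1 and 35935 and 39089 in ground control. No direction is therefore given for Aldoa, Pgk1, Pgam1, Pgd or Tkt. None of the 32 genes passed the test under any of these scalings, and 1 to 2 were higher and 1 to 2 lower at an unadjusted p under 0.05.

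**Figure D5:**
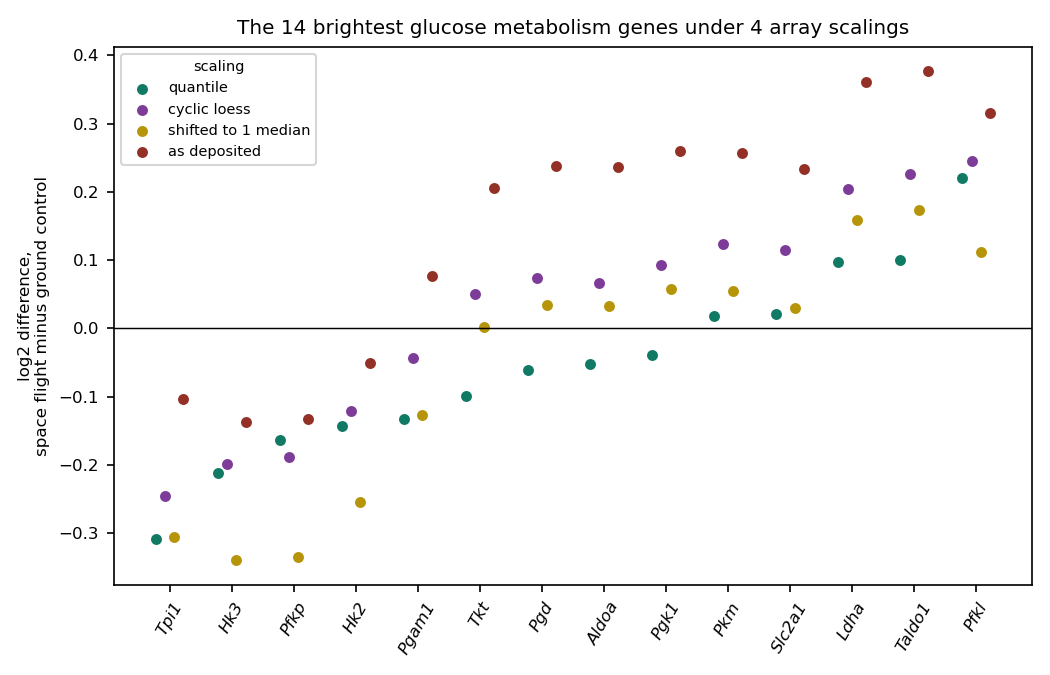
Log2 difference of the 14 genes among the brightest 5% of measured genes under 4 array scalings, ordered by the quantile normalized value. Values as deposited lie highest, and Aldoa, Pgk1, Pgd and Tkt lie below 0 under quantile normalization only.

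Of 17 genes with more than 1 measured probe set of their own, 9 had all probe sets on 1 side of 0. These were Slc2a3, Hk1, Hk3, Pfkl, Pfkp, Pfkfb3, Aldoc, Tpi1 and Pdk1. Probe sets disagreed in sign for Slc2a1, Aldoa, Pgk1, Bpgm, Ldhb, Pdha1, Pgd and Tkt. The same count was not made over all measured genes.

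Around these 32 genes, 6 further lists were read from the same limma test, and none of their measured genes passed it. Over all measured genes 6.88% were higher and 7.32% lower at an unadjusted p under 0.05, and the median difference was 0.015. Other isoforms of transporters and glycolytic enzymes had 11 of 21 measured and a median of 0.023, with 0 at an unadjusted p under 0.05; Bsg (0.64 ± 0.32, SE), Pfkfb2 (−0.91 ± 0.50) and the ADP-dependent glucokinase Adpgk (0.60 ± 0.37) had the smallest p. Pyruvate entry and further pentose phosphate genes had 12 of 16 measured and a median of −0.24, with 3 lower at an unadjusted p under 0.05. Mpc1, a subunit of the carrier that takes pyruvate into mitochondria, read 11.45 and 12.04 in space flight against 12.87 and 12.88, or −1.14 ± 0.24 (SE; adjusted p = 0.0910). The dehydrogenase subunit Dld stood at −0.81 ± 0.31 and H6pd, which makes NADPH in the endoplasmic reticulum, at −0.62 ± 0.25.

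Glycogen and gluconeogenesis genes had 15 of 20 measured and a median of −0.34. At an unadjusted p under 0.05, 2 were lower and 0 higher, against 7.32% and 6.88% of measured genes. G6pc3, the glucose 6-phosphatase of most tissues, read 7.86 and 7.87 in space flight against 8.72 and 9.56, or −1.28 ± 0.37 (SE; adjusted p = 0.169). Pygl, a glycogen phosphorylase, stood at −0.65 ± 0.22 and the glycogen primer Gyg at −0.37 ± 0.17. Citric acid cycle genes had 19 of 20 measured and a median of −0.19, with 2 higher and 1 lower at an unadjusted p under 0.05. These were Sucla2 (0.77 ± 0.19) and Dlst (0.66 ± 0.28) above 0 and Idh1 (−0.56 ± 0.17), an isocitrate dehydrogenase outside mitochondria, below 0.

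Regulators of glycolysis had 9 of 10 measured. Their median of −0.089 was that of Hif1a, which had −0.089 ± 0.25 (SE) with overlapping groups. At an unadjusted p under 0.05, 1 regulator was lower and 0 higher, against 7.32% and 6.88% of measured genes. That was Epas1, a relative of Hif1a, at −1.24 ± 0.34 (SE; adjusted p = 0.141), followed by the partner subunit Arnt at 0.66 ± 0.34 and the uptake inhibitor Txnip at −0.48 ± 0.27. Other hypoxia targets had 18 of 20 measured and a median of 0.011, with 2 higher at an unadjusted p under 0.05. Ddit4, an inhibitor of mTORC1 signalling, read 11.33 and 10.47 in space flight against 9.17 and 9.39, or 1.62 ± 0.34 (SE; adjusted p = 0.0910). Higd1a stood at 0.58 ± 0.17 and Egln3 at −0.36 ± 0.17.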

How the data were processed

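Samples were grouped by their titles. The authors deposited 1 linear intensity per probe set and array, made with GCOS per the submitters' processing notes; the sources used here give neither its version nor the summarising algorithm or scaling target. The deposited intensity had the same 2% trimmed mean, 500.004, on each array. From it log2(intensity + 16) was computed in R 4.3.3; such folds understate changes of dim genes. Array medians differed by up to 0.38, so quantile normalization was applied, leaving out the 64 controls. Of 45037 probe sets 34945 had 1 symbol, 932 several and 9160 none. The brightest single-symbol probe set stood for each gene. Those of Slc2a3, Hk3, Aldoa, Tpi1, Pgk1, Bpgm, Pgd and Tkt were of the maker's classes that can bind other transcripts.

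Groups were compared in limma 3.58.1 (lmFit, eBayes with intensity trend, two-sided, 2 residual and 10.4 moderated degrees of freedom, Benjamini-Hochberg over 11141 genes); probe sets beside the main one were fitted over 22519 measured probe sets. The code was tested on simulated data. The genes and lists were chosen with earlier results of these data known, so no list was tested. Named from each list were the 3 genes with the smallest p, and from the macrophage, neutrophil and erythroid markers the 3 brightest. Hif1a was named besides, since the text refers to it. Same-numbered arrays share only a number: the differences between replicates correlated at 0.057 across genes. B cell, T and NK cell, and mast cell markers had 2 of 6, 2 of 6 and 3 of 6 measured, with median differences of 0.58, −0.01 and −0.08.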

Additional observations from a re-analysis of the deposited data

How the results depend on the processing

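The number of measured genes past limma's threshold, 7 with all settings as described, was 16 with values as deposited, 21 with cyclic loess, 12 with a pseudocount of 64, 28 when only genes above the 75th percentile were kept, 11 with every probe set on its own and 433 with the replicate block. It was 0 with each array shifted to 1 median, with no dim filter, with the mean of a gene's probe sets and with no intensity trend, where 1489, 1942, 1307 and 1349 genes had an unadjusted p under 0.05. With 1 array left out it ran from 7 to 1080. Of the 32 genes, 0 passed, 1 (Slc2a3) with the replicate block, and 0 to 5 with 1 array left out. Their median of −0.045 was 0.18 with values as deposited, 0.071 with cyclic loess, 0.019 with the mean of a gene's probe sets, −0.010 over all probe sets, and −0.051 to 0.021 with 1 array left out. Without probe sets of the 2 classes that can bind other transcripts, a choice made after seeing the data, 25 genes passed, the median was −0.081, and Slc2a3 was no longer measured. The causes were not tested. Of the 32 differences, 16 had the same sign under every alternative that gave the gene its own value; 8 changed sign under another array scaling and 10 with 1 array left out.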
